A study of Mus musculus with 20 samples.

Results

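The replication-dependent histone genes of the mouse were followed in bortezomib-sensitive and bortezomib-resistant myeloma cultures. Members were chosen by name alone: every array probe whose gene carries an older symbol beginning Hist1h, Hist2h, Hist3h or Hist4h, or the same gene under its current H2ac, H2bc, H3c or H4c symbol. The 6 H1 genes (now H1f1 to H1f6) and H2aw, H2bu2, H4f16 and the pseudogene H2bu1-ps were matched through their older names. This gave 90 probes of 60 genes, among 34885 probes of 19057 genes with 1 gene symbol. There were 7 probes of 6 H1 genes, 24 of 17 H2A genes, 20 of 15 H2B genes, 18 of 9 H3 genes and 21 of 13 H4 genes. By the gene table of the mouse assembly GRCm38.p6, 70 probes belonged to the Hist1 cluster on chromosome 13, 15 to Hist2 on chromosome 3, 3 to Hist3 on chromosome 11 and 2 to Hist4 on chromosome 6. A filter kept the brightest 50% of all array probes by mean signal over the arrays, and 74 histone probes of 54 genes passed it: 4 of H1, 23 of H2A, 18 of H2B, 12 of H3 and 17 of H4.

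Gene expression was measured on Illumina bead arrays in the mouse multiple myeloma lines 589bm and 595sp. Both carry Bcl-XL and Myc transgenes (Bcl-XL/Myc double transgenic) on a background of FVBN crossed with BL/6, a genotype that all groups shared. From each line came 1 culture that is sensitive and 1 that is resistant to bortezomib, an inhibitor of the proteasome. The 4 cultures received the drug at 33 nM, and RNA was taken before it (0 h) and 2, 8, 16 and 24 h later. A single array stood for each culture at each time, so that each of the 10 groups held 2 arrays, 1 per line. The promoter that drives each transgene, the age and number of the source animals and the way resistance was obtained are not stated in the labels. There was no untreated array after 0 h, so the drug and the time in culture cannot be told apart. The 589bm resistant 2 h array was left out, and the resistant 2 h value therefore rests on 595sp alone.

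Replication-dependent histone genes supply the bulk of new histones when DNA is copied in S phase. H2A, H2B, H3 and H4 form the nucleosome core, and H1 is the linker histone that binds DNA between nucleosomes. Most of their mRNAs end in a stem-loop bound by Slbp rather than in a poly(A) tail, and they are degraded when DNA synthesis stops. Kits of the kind used here prime from poly(A), so a probe's level may also reflect how much of a histone mRNA is polyadenylated, which was not tested. Many copies within a class are nearly identical, probe sequences were not used here, and signal from sister copies cannot be told apart.

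The stretch of 150 bases directly upstream of the annotated start is shown for 6 genes on which the results below turn, read from the RefSeq promoter table of GRCm38.p6, 5′ to 3′ along the gene. Capitals mark the letters CCAAT (as in a CCAAT box), TATAAA (as in a TATA box) and ATTTGCAT (as in the octamer). Both strands were searched, and none of the 3 motifs contains another. Matches were marked at any distance from the start, and that of TATAAA in H4c17 lies near the far end of its stretch. H2ac12 and H2ac15 were the H2A genes of a tight H2A-H2B pair with large differences between the 589bm cultures, H4c17 had the largest H4 difference there, H2ac18 and H2ac19 fell in the resistant cultures, and H1f2 rose in the sensitive cultures.
H2ac12: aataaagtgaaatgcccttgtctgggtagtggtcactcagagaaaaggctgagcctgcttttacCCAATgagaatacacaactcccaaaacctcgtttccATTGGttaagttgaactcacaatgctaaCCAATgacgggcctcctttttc
H2ac15: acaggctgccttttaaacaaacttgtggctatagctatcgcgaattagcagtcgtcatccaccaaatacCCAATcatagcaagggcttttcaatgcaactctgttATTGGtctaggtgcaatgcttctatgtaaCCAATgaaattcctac
H4c17: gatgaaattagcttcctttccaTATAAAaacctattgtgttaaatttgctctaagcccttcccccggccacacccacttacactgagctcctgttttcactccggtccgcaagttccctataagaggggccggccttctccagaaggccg
H2ac18: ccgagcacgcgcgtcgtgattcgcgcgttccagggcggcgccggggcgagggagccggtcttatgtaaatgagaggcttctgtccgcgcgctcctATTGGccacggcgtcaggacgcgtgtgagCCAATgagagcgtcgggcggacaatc
H2ac19: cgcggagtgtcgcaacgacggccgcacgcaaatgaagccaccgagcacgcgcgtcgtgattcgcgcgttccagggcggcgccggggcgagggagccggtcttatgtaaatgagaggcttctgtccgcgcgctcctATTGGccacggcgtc
H1f2: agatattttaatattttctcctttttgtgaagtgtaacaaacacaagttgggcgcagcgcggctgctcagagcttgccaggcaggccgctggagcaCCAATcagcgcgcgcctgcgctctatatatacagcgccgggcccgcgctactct
These stretches lie at chr13:22035644-22035793 (minus strand), chr13:21753913-21754062 (minus strand), chr13:21811596-21811745 (plus strand), chr3:96245347-96245496 (plus strand), chr3:96240375-96240524 (minus strand) and chr13:23738657-23738806 (plus strand). The H2ac12 stretch shares 123 bases with the stretch upstream of H2bc12, which runs the other way. H2ac18 and H2ac19 are near copies on opposite strands: over their promoter windows, 249 of 260 aligned bases were identical once the starts were displaced by 40 bases. The table held 55 promoters of 54 of the 60 genes. CCAAT was found in 45 of the 55, against 24.5% of all 32851 promoters, in all 17 of H2A and all 13 of H2B but in 3 of 12 of H4. TATAAA was found in 22, against 7.57% of all promoters. ATTTGCAT was found in 11, of which 5 were of H2A and 6 of H2B, against 0.998% of all promoters. A match describes letters in this window and is not a measured binding site.

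On the left-out array 0.144% of probes exceeded 2 times the array median, where the 19 arrays used had 13.4% to 20.3%. After normalization each of the 19 was most correlated with an array of the same culture, while by rank correlation of the deposited intensities this held for 15, and 4 were closest to an array of another culture. The 5 arrays titled 595spVR carry characteristics that disagree with their titles on sensitivity or time, and they are used here by title. Of 8 plasma cell markers 6 passed the filter. Their summed signals were 19554 to 26554 in 589bm sensitive and 29688 to 33143 in 589bm resistant arrays. In 595sp they were 19939 to 24753 in sensitive and 17640 to 23426 in resistant arrays. Mzb1 (mean log2 signal 14.26) was the brightest of the 6, while Sdc1 (6.99) and Prdm1 (6.47) were dim, Prdm1 lying close to the filter limit. All 5 measured B cell markers passed (summed signals of 9244 to 22213 over the arrays). Cd74 (13.18) and Cd79b (12.06) were the brightest of them, while Ms4a1 (6.68) and Pax5 (6.65) were dim. Of 7 T cell, 8 macrophage, 4 erythroid and 6 stromal markers 4, 4, 2 and 2 passed. Macrophage markers summed to 1085 to 2097 in 595sp sensitive and 741 to 894 in 595sp resistant arrays. Of all these markers, Cd2 (2.33), Irf4 (1.15), Slamf7 (0.74), Thy1 (0.36) and Sdc1 (0.34) were higher in resistant 595sp (log2, limma adjusted p under 0.05). Mpeg1 (-1.53), Cd3g (-1.40), Csf1r (-1.16), Cd22 (-0.90), Hbb-bt (-0.81), Cd14 (-0.70), Cd28 (-0.63) and Fcgr1 (-0.40) were lower there. The part of these markers in the 595sp results was not tested. In RNA from whole cultures, fewer cells making histone mRNA and less of it per cell cannot be told apart.

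H2A probes were by far the brightest of the 5 classes. The tested H2A probes had a median mean log2 signal of 12.65, against 8.30 for H1, 8.09 for H2B, 8.38 for H3, 7.30 for H4 and 7.19 for all tested probes. Probe design and labelling enter such levels, so the order of classes is a property of the probes and is no measure of mRNA amounts. The 4 brightest H2A probes were those of H2ac24 (14.53), H2ac10 (14.48), H2ac20 (14.42) and H2ac7 (14.32). In the H2B class the brightest were H2bc7 (9.46), H2bc6 (9.37), H2bc11 (9.11) and H2bc9 (8.86). Among H3 probes H3c13 (11.13), H3c14 (10.79), H3c10 (10.66) and H3c4 (9.15) led, and among H4 probes H4c1 (9.27), H4c11 (8.22), H4c9 (8.15) and H4c8 (8.08). H1 was carried by 2 probes of H1f2 (10.04 and 9.80), with H1f5 (6.80) and H1f1 (6.65) close to the filter limit of 6.47.

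**Figure D1:**
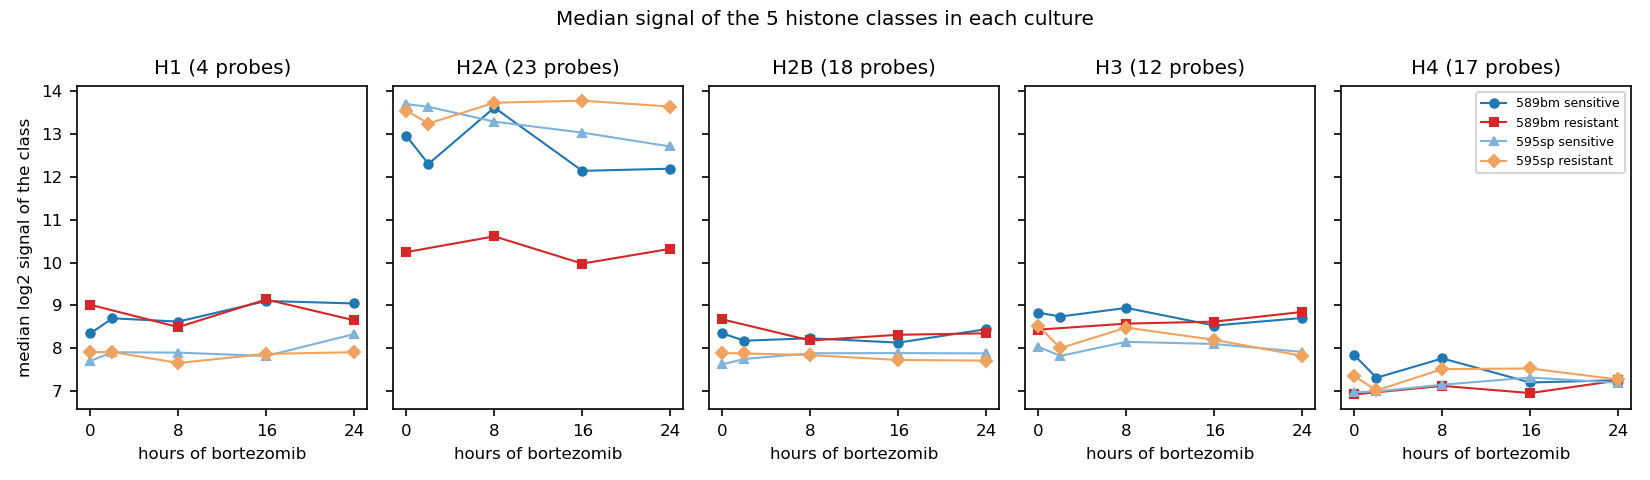
Median log2 signal of the tested probes of each histone class (vertical axis) against hours of bortezomib (horizontal axis), with 1 line per culture and 1 array per point. In the H2A panel the 589bm resistant arrays lie between 9.98 and 10.61, below the other cultures at 12.14 to 13.78, while the medians of the other 4 classes lie between 6.92 and 9.14.

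The class medians placed the 589bm resistant culture apart from the others for H2A, as the plot of class medians shows. Its H2A median was 10.25, 10.61, 9.98 and 10.32 at 0, 8, 16 and 24 h. The 589bm sensitive culture had 12.96, 12.31, 13.62, 12.14 and 12.19 from 0 to 24 h. All 4 resistant values lay below all 5 sensitive ones. The median of 23 probes is the reading of a single probe. On most 589bm arrays it matched that of H2ac12 or H2ac22, so it largely repeats the readings of these genes given below. The median of the probe differences (log2, resistant minus sensitive) was smaller in size, at -1.41. In 595sp the H2A median ranged from 12.71 to 13.70 in sensitive and from 13.25 to 13.78 in resistant arrays, and the ranges overlapped. For H2B the 589bm ranges were 8.13 to 8.45 in sensitive and 8.18 to 8.67 in resistant arrays, which also overlapped.

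Within 589bm, H2A signal was lower in the resistant than in the sensitive culture on most of its probes, while no H2B probe was lower. Signal from sister copies cannot be told apart, so these probes may read the same mRNAs, which was not tested. Of 23 H2A probes 16, of 11 genes, were lower by limma (adjusted p under 0.05, Benjamini-Hochberg over all 22641 probes), and 1 was higher. Over all classes 26 of 74 histone probes passed, 22 lower and 4 higher, where 22.7% of all probes passed in either direction 11.2% being higher and 11.4% lower. Of H4 probes 4 were lower and 1 higher, of H3 probes 2 were lower, of H2B probes 2 were higher, and no H1 probe passed. The median difference (log2, resistant minus sensitive) was -1.41 for H2A, 0.18 for H2B, -0.30 for H3, -0.20 for H4, 0.05 for H1 and -0.0061 for all tested probes. The 2 tested stromal markers summed to 572 to 654 in 589bm sensitive and 822 to 1000 in 589bm resistant arrays, without overlap. Only Thy1 of the 2 passed (1.40, limma adjusted p = 3.7e-08), while Col1a2, close to the filter limit, had 0.15. Of the tested T cell, erythroid and plasma cell markers Cd3g (-0.53), Hbb-bt (-0.85), Xbp1 (0.64) and Mzb1 (0.53) passed. The part of these markers in the result was not tested. The p-values measure the spread of the arrays of all 4 cultures around a shared time course, with 1 culture of each kind per line. They say nothing of other resistant cultures.

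**Figure D2:**
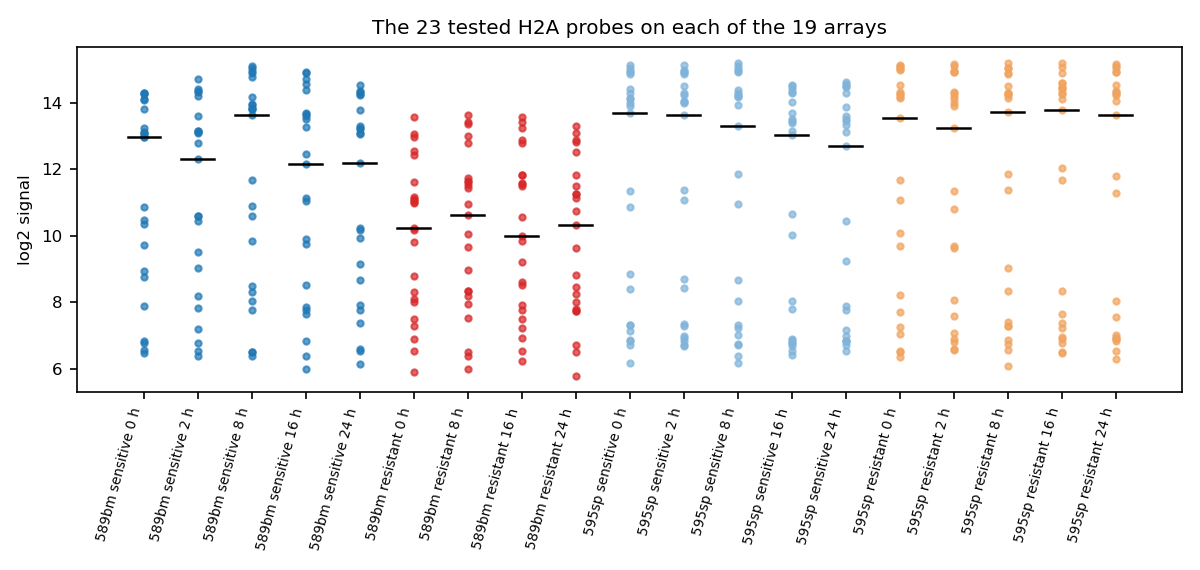
Log2 signal (vertical axis) of the 23 tested H2A probes on each of the 19 arrays (horizontal axis, by culture and time); each dot is 1 probe and each bar the median of the array. The 4 arrays of the 589bm resistant culture have medians of 9.98 to 10.61, and the other 15 have medians of 12.14 to 13.78.

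H2ac12, a core H2A gene, had the largest difference on 1 of its 2 probes. That probe read 13.13, 12.80, 13.81, 12.14 and 13.05 in the sensitive 589bm culture at 0, 2, 8, 16 and 24 h. In the resistant 589bm culture it read 9.81, 10.61, 9.98 and 10.32 at 0, 8, 16 and 24 h. In 595sp it read 14.00, 14.29, 13.93, 13.51 and 13.13 in the sensitive and 14.13, 13.90, 14.30, 14.43 and 14.06 in the resistant culture. The 589bm groups did not overlap, and the resistant arrays were the lowest of all 19, while the 595sp groups overlapped. The difference in 589bm was -2.80 (SE 0.22, limma adjusted p = 1.1e-08), a 6.98-fold lower signal, and the other probe gave -2.0 (SE 0.19, adjusted p = 1.2e-07).

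The next largest differences were those of H2ac11 (-2.23, SE 0.21), H2ac15 (-2.16, SE 0.18) and H2ac22 (-2.12, SE 0.21), with limma adjusted p of 1.4e-07, 1.8e-08 and 3.3e-07. These are further H2A copies of the Hist1 cluster. H2ac22 read 12.97, 12.31, 13.62, 12.46 and 12.19 in the sensitive and 10.25, 10.95, 10.57 and 10.73 in the resistant culture, again with no overlap. Of the Hist2 cluster, H2ac21 (-2.0, SE 0.27) and the brighter probe of H2ac20 (-1.38, SE 0.15) were lower too. The brightest probe, that of H2ac24, read 14.26 to 15.11 in the 5 sensitive and 13.07 to 13.59 in the 4 resistant arrays (difference -1.41, SE 0.14, adjusted p = 3.0e-07).

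Of the 23 H2A probes, 14 had all 4 resistant arrays below all 5 sensitive arrays of 589bm, as did 4 of 17 H4 probes and no probe of H1, H2B or H3. Over all tested probes, 6.14% were placed so. The opposite placement held for 1 H2A and 1 H2B probe, against 6.62% of all probes. The H2A probes that stayed near 0 were dim ones, namely H2ac6 (0.00, mean log2 signal 6.59), H2ac4 (0.19, 7.21) and H2ac1 (0.28, 6.47). All 12 H2A probes with a mean log2 signal above 12, a limit set after the values were seen, were lower, whereas 13.6% of the 663 probes that bright were. The brightest histone probe reached 22.5% to 32.9% of the highest signal on the 589bm resistant arrays, 56.1% to 96.9% on the 589bm sensitive arrays and 64.6% to 100% on the 595sp arrays. The effect of signal near the top of an array on these differences was not tested.

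Outside H2A, H4c17 was the H4 gene with the largest difference in 589bm. It read 7.92, 7.63, 7.74, 7.26 and 7.09 in the sensitive culture and 6.02, 6.29, 6.08 and 6.5 in the resistant culture. The resistant arrays lay below all sensitive ones (difference -1.31, SE 0.16, limma adjusted p = 6.7e-06). H4c18 (-1.11), H4c6 (-0.80) and H4c9 (-0.78) were lower on 1 probe each, and the other probes of H4c18 and H4c6 did not pass (-0.37 for H4c18, -0.36 and -0.20 for H4c6). H3c14 (-0.97, SE 0.22) and H3c13 (-0.66, SE 0.17), near-identical H3 genes of the Hist2 cluster, were lower with limma adjusted p of 0.0030 and 0.0060. On a second tested probe H3c14 had -0.24.

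The 4 probes that were higher in the resistant 589bm culture belonged to H4c8 (0.78, SE 0.15), H2bc4 (0.60, SE 0.15), H2ac8 (0.44, SE 0.13) and H2bc3 (0.39, SE 0.14). H4c8 read 8.76, 8.62, 8.52, 8.07 and 8.15 in the sensitive and 9.89, 9.30, 8.99 and 8.51 in the resistant culture, and the 2 ranges overlapped. H2bc4 read 8.66 to 9.38 in the sensitive and 9.23 to 10.20 in the resistant arrays, also with overlap. Under median scaling of the arrays, 24 probes passed, 0 higher and 24 lower. With all 20 arrays 19 passed, all lower, and H2bc4 turned to -0.07.

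**Figure D3:**
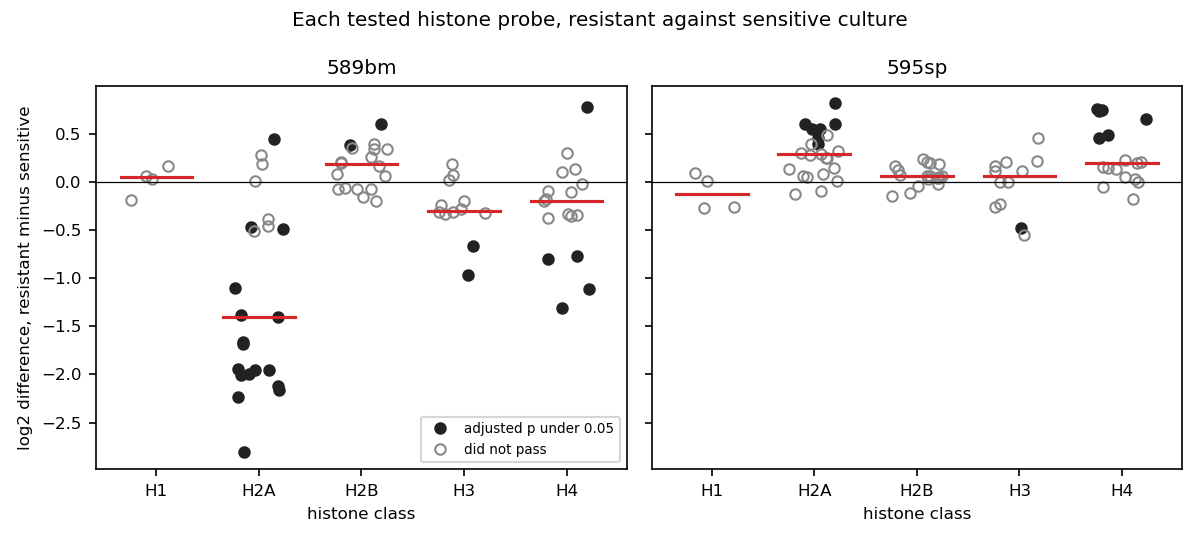
Log2 difference, resistant minus sensitive (vertical axis), for each tested histone probe by class (horizontal axis) in 589bm and 595sp; filled dots passed an adjusted p under 0.05, open dots did not, and red bars are class medians. The H2A median is -1.41 in 589bm and 0.29 in 595sp.

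The probes of neighbouring H2A and H2B genes did not share the difference. Because signal from sister copies cannot be told apart, the values of single pairs may not be separate results. The annotation places 10 H2A-H2B pairs less than 1000 bases apart (163 to 717 bases), and in the 6 pairs whose strands are given in the promoter table the genes run in opposite directions. In 8 pairs both genes had a tested probe, and taking the brightest of each gene, the H2A gene was lower in 589bm in 6 pairs and the H2B gene in 0, with 1 H2A gene, H2ac8 (0.44, beside -0.08 for H2bc8), and 1 H2B gene, H2bc4 (0.60, beside 0.00 for H2ac6), higher. H2ac12 had -2.0 and H2bc12, which shares its upstream stretch, 0.26 (SE 0.15). H2ac15 had -2.16 and H2bc15 -0.16 (SE 0.13). H2ac11 had -2.23 against 0.35 for H2bc11, and H2ac7 -1.66 against 0.34 for H2bc7. H2bc21 lies beside both H2ac20 and H2ac21 and had -0.08. In the 6 pairs with a lower H2A gene the H2A probe was also the brighter one, at 13.25 for H2ac12 against 8.16 for H2bc12, whereas H2ac6 (6.59) was dimmer than H2bc4 (8.75); these levels include the design of each probe.

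**Figure D4:**
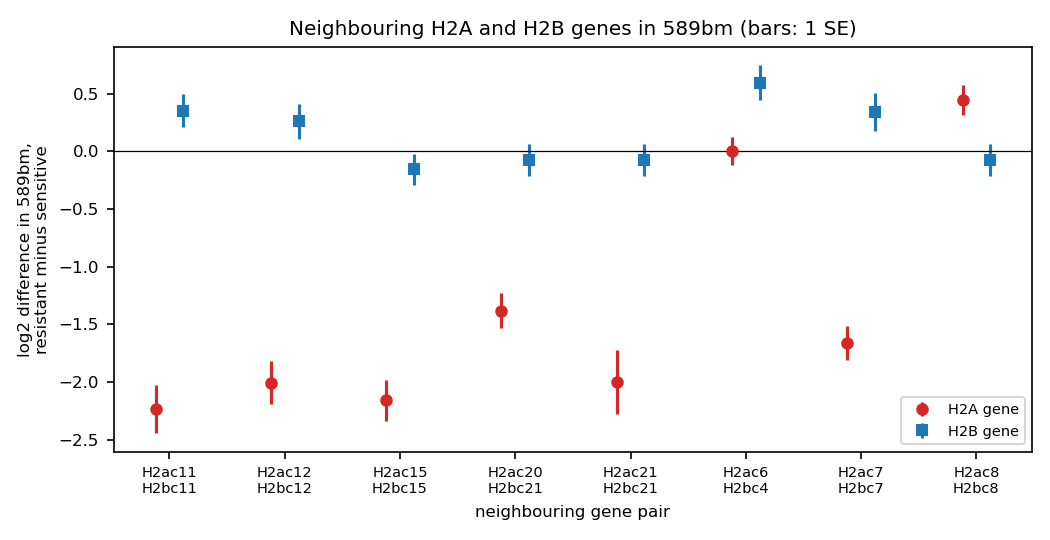
Log2 difference between the resistant and sensitive 589bm cultures (vertical axis; points are the brightest tested probe of each gene, bars 1 SE) for the 8 neighbouring H2A and H2B gene pairs (horizontal axis). The H2A gene lies below -1.3 in 6 pairs, and the H2B genes lie between -0.16 and 0.60.

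Within 595sp the histone differences were small and mostly upward. Of 74 probes 14 passed, 13 higher and 1 lower, a share of 18.9% beside 18.4% of all probes, of which 9.52% were higher and 8.85% lower. The higher probes were 7 of H2A and 6 of H4, and the lower one was H3c13 (-0.48, SE 0.15, limma adjusted p = 0.031). H2ac21 was the largest (0.81, SE 0.25, adjusted p = 0.028). It read 10.88, 11.08, 10.95, 10.02 and 9.23 in the sensitive and 11.06, 10.80, 11.38, 11.68 and 11.29 in the resistant culture, so that the groups overlapped and the lowest values were the sensitive ones at 16 and 24 h.

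Of the H4 genes, H4c9 (0.75, SE 0.13), H4c1 (0.74, SE 0.14), H4c18 (0.73, SE 0.13) and H4c6 (0.65, SE 0.16) were higher, with limma adjusted p of 0.00023, 0.00066, 0.00030 and 0.0043. H4c9 read 7.62, 7.65, 8.02, 7.64 and 7.57 in the sensitive and 8.52, 8.42, 8.58, 8.53 and 8.22 in the resistant culture. All 5 resistant arrays lay above all 5 sensitive ones, which held for 5 of 17 H4 probes and for no probe of another class, against 5.47% of all tested probes, and 0 histone probes lay the other way, against 5.73%. The count of 14 fell to 2 with all 20 arrays and to 6 without the time term. It was 6 without the sensitive 16 h array or the resistant 0 h array of 595sp, 7 without its sensitive 24 h array and 8 without its resistant 24 h array.

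The resistant minus sensitive difference itself differed between the lines for 24 of 74 histone probes, 23 lower in 589bm and 1 higher, where 20.2% of all probes passed, 10.2% lower and 9.97% higher. They were 18 of 23 H2A probes, 5 of 17 H4 probes and H2bc4. H2ac12 had the largest such gap (589bm minus 595sp, -3.20, SE 0.30, limma adjusted p = 1.2e-07), followed by H2ac11 (-2.83, SE 0.29), H2ac21 (-2.81, SE 0.37) and H2ac15 (-2.71, SE 0.24). H2bc4 was the exception in sign (0.71, SE 0.20, adjusted p = 0.016). With all 20 arrays the count was 14.

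In the 0 h arrays alone, before the drug, no histone probe passed by limma, 12 had an unadjusted p under 0.05 (1903 of all 22641 probes did), and 0% of all probes passed in this fit with 1 residual degree of freedom. The smallest p were those of H3c14 (-1.19, SE 0.29, adjusted p = 0.34), which was lower in both lines (-1.31 and -1.07), and H2ac13 (-1.22, SE 0.39, adjusted p = 0.47), with -2.20 in 589bm and -0.24 in 595sp. For H2ac12 the 0 h difference was -3.33 in 589bm and 0.13 in 595sp on the probe described above.

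**Figure D5:**
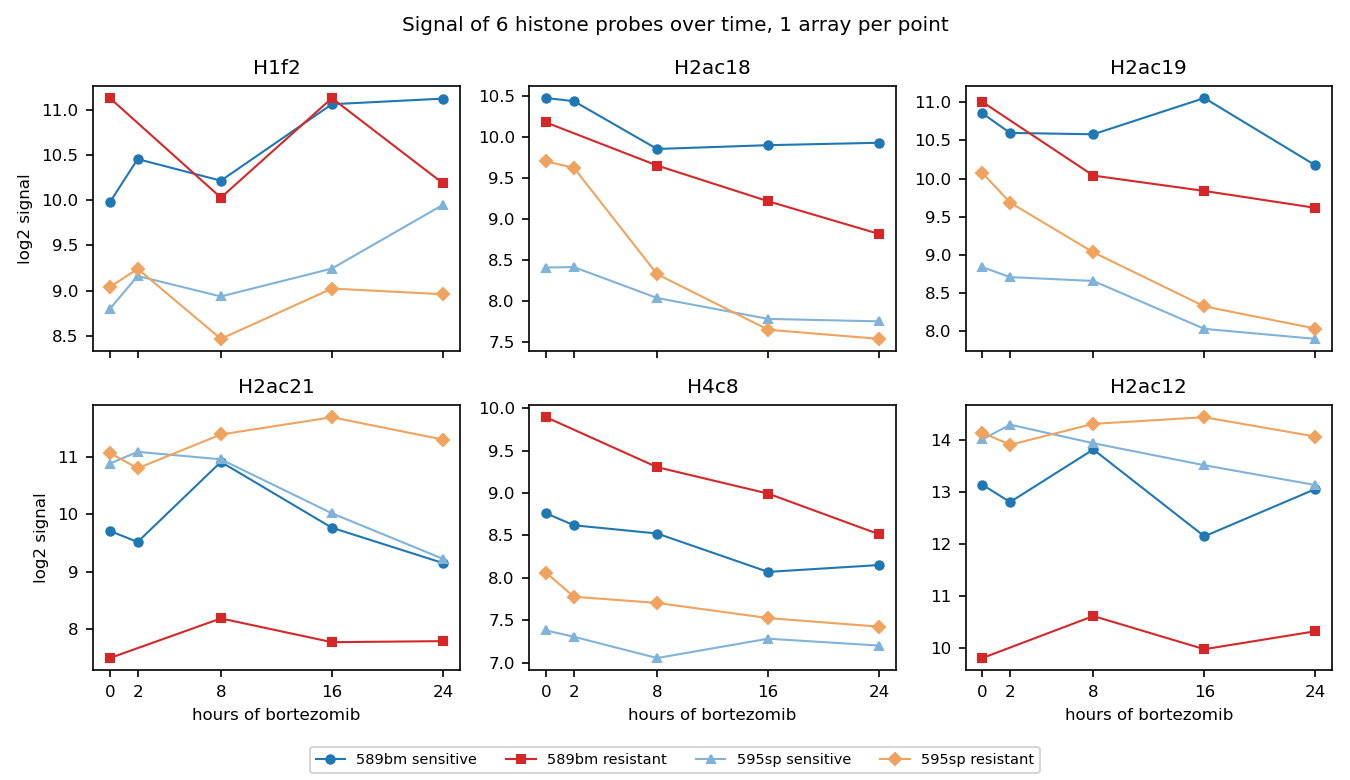
Log2 signal (vertical axis) of 6 histone probes against hours of bortezomib (horizontal axis) in the 4 cultures, 1 array per point; for H1f2, H2ac18 and H2ac12, which have several probes, 1 probe is drawn. H2ac18 and H2ac19 end lower than they start in both resistant cultures, and H1f2 ends higher in both sensitive cultures.

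During bortezomib the histone genes moved little in the sensitive cultures, and the change with the smallest p was a rise of the linker histone gene H1f2. At 24 h 5 of 74 probes passed, 2 higher and 3 lower, a share of 6.76% beside 12.1% of all probes, of which 6.37% were higher and 5.69% lower. Both probes of H1f2 rose by limma, by 1.15 (SE 0.22, adjusted p = 0.0024) and 0.96 (SE 0.21, adjusted p = 0.0057). The first read 9.98, 10.45, 10.22, 11.06 and 11.12 in 589bm and 8.80, 9.16, 8.93, 9.24 and 9.95 in 595sp from 0 to 24 h. The 24 h arrays were the highest of both sensitive cultures, and the rise was 1.15 in each line.

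The H1f2 rise already passed at 16 h on that probe (0.77, SE 0.22, limma adjusted p = 0.037), where 1 histone probe and 8.65% of all probes did (4.51% higher and 4.13% lower). Over the mean of 8, 16 and 24 h both probes were higher (0.70 and 0.54). Under median scaling, which placed the median of all probes at -0.10 at 24 h and -0.15 at 16 h, the rises were 0.81 and 0.59 at 24 h with limma adjusted p of 0.12 and 0.30; over all alternatives the adjusted p ran from 0.0012 and 0.0031 up to 1.0. In the resistant cultures the same probes had -0.51 and -0.49 at 24 h and did not pass. H1f1 and H1f5, the other tested H1 genes, passed in no comparison.

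The 3 probes that fell in the sensitive cultures at 24 h were all of H2A: H2ac21 (-1.10, SE 0.30), H2ac22 (-0.88, SE 0.26) and H2ac19 (-0.81, SE 0.24), with limma adjusted p of 0.021, 0.032 and 0.038. H2ac21 read 9.71, 9.52, 10.91, 9.76 and 9.15 in the sensitive 589bm culture, highest at 8 h, so that its change at 24 h was -0.56 there and -1.65 in 595sp. Of the markers of other cell types, Mpeg1 (-2.25), Cd3g (-1.76), Hbb-bt (-1.35) and Cd2 (-0.81) fell at 24 h in the sensitive cultures. So did the B cell markers Cd22 (-1.51) and Cd79b (-0.77). Other tested members of these lists did not pass, Cd14 (1.07), Csf1r (0.19), Cd74 (0.07) and Cd3e (0.06) being above 0. Below 0 were Hba-a1 (-0.58), Cd28 (-0.31), Fcgr1 (-0.20), Ms4a1 (-0.19) and Pax5 (-0.10). The part of these markers in the 24 h results was not tested. The median change at 24 h was -0.22 for H2A, 0.16 for H2B, -0.12 for H3, -0.15 for H4 and -0.0019 for all tested probes. Over the mean of the 3 late times, where 4 histone probes (2 higher, 2 lower) and 11.4% of all probes (6.05% higher, 5.38% lower) passed, H2ac18 (-0.57, SE 0.18) and the dim probe of H2ac20 (-0.61, SE 0.19) were lower, the bright H2ac20 probe being at 0.12. At 2 h no histone probe and 0% of all probes passed, with 1 at an unadjusted p under 0.05 (594 of all 22641 probes); H2ac1 (0.41) and H2bc4 (-0.30) had the smallest p. At 8 h none passed beside 1.93% of all probes, with 9 at an unadjusted p under 0.05, 7 of them H2A, where 2902 of all 22641 probes had such a p; H2ac11 (0.91, adjusted p = 0.088) and H2ac4 (0.64, adjusted p = 0.22) led.

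In the resistant cultures 2 near copies of the Hist2 cluster, H2ac18 and H2ac19, fell over time while no other H2A probe passed. H2ac18 read 10.18, 9.65, 9.22 and 8.82 in 589bm at 0, 8, 16 and 24 h. In 595sp it read 9.70, 9.63, 8.33, 7.65 and 7.54 from 0 to 24 h. The values declined at each step in both cultures. At 24 h the change was -1.76 (SE 0.22, limma adjusted p = 0.00076), and a second probe gave -1.05 (SE 0.20, adjusted p = 0.013), whereas the remaining one, near the filter limit, gave 0.13. Among the cell-type markers, Cd3g passed in the resistant cultures at 16 h (-1.19) and 24 h (-1.21), and no other marker did. The part of Cd3g in the resistant time course was not tested.

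H2ac19 read 11, 10.04, 9.84 and 9.62 in 589bm resistant arrays at 0, 8, 16 and 24 h. Its 595sp resistant values were 10.07, 9.68, 9.03, 8.32 and 8.03 from 0 to 24 h, so that it too declined at each step. Its change at 24 h was -1.71 (SE 0.24, adjusted p = 0.0025 by limma). The promoter windows of both genes are nearly the same sequence, and their probes may read each other's mRNA, which was not tested. In the sensitive cultures H2ac18 had -0.60 and H2ac19 -0.81 at 24 h.

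The remaining probe that passed in the resistant cultures at 24 h was H4c8, the H4 gene that was higher in resistant 589bm. It fell by 1.01 on the log2 scale (SE 0.21, limma adjusted p = 0.030), with values of 9.89, 9.30, 8.99 and 8.51 in 589bm and 8.06, 7.78, 7.71, 7.53 and 7.43 in 595sp. These values declined at each step as well. In all, 4 probes passed at 24 h, all lower (5.41% beside 1.06% of all probes, 0.442% being lower and 0.614% higher). At 16 h 3 passed, all lower (4.05% beside 1.09%, 0.534% lower and 0.557% higher), and over the mean of the late times 4, all lower (5.41% beside 1.81%, 0.875% lower and 0.932% higher). At 16 h they were the first 2 probes of H2ac18 (-1.51 and -1.32) and H2ac19 (-1.46), and over the mean of the late times the same 3 with H4c8. At 2 h no histone probe and 0% of all probes passed, with 1 at an unadjusted p under 0.05 (500 of all 22641 probes); H2bu1-ps (-0.52) and H3c10 (-0.55) had the smallest p. At 8 h none passed beside 0.172% of all probes, with 12 at an unadjusted p under 0.05 (2079 of all 22641 probes), led by H2ac18 (-0.95, adjusted p = 0.10) and H1f2 (-0.85, adjusted p = 0.13).

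With no culture term, and with all 20 arrays, 0 histone probes passed at any time in either kind of culture by limma. The 24 h calls of the H1f2 probe and the H2ac18 probe whose readings are given above passed in each of the 19 fits that left out 1 array, while other calls changed with single arrays. Without the 5 arrays titled 595spVR the counts were 2 at 24 h in the sensitive and 0 in the resistant cultures, and without the 595sp resistant 0 h array they were 0 at 16 h and 1 at 24 h in the resistant cultures. In the resistant cultures the count was 1 at 16 h without either 16 h array, 2 at 24 h without the 589bm and 1 without the 595sp 24 h array. In the sensitive cultures the 24 h count was 2 without either 0 h array, 3 without the 589bm and 1 without the 595sp 24 h array. The single sensitive 16 h call was lost without either sensitive 0 h array, the 589bm sensitive 16 h array or either resistant 8 h array, and 7 probes passed without the 595sp sensitive 16 h array. Over the mean of the late times the sensitive count was 0 without either sensitive 0 h array, 1 without either sensitive 2 h or resistant 8 h array and 2 without either 24 h array of either sensitivity or the 589bm sensitive 16 h array. The resistant count there was 2 without the 589bm and 0 without the 595sp resistant 0 h array.

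The mean response of the resistant cultures was not shown to differ from that of the sensitive ones for any histone gene. Of 74 probes 0 passed by limma, beside 0.0707% of all probes. At an unadjusted p under 0.05 there were 10 histone probes and 2504 of all 22641. H1f2 had the smallest p on both probes, at -1.15 (SE 0.25, adjusted p = 0.12) and -1.03 (SE 0.24, adjusted p = 0.15), resistant minus sensitive. Its response was lower in the resistant culture in both lines, by -1.51 in 589bm and -0.80 in 595sp on the first probe.

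Among histone genes that are also expressed outside S phase, H2ax fell during bortezomib and no other passed in that fit at 16 or 24 h in the sensitive or at 24 h in the resistant cultures. Of 9 such genes on the array 8 passed the filter, Macroh2a2 being below it. H2ax, the variant phosphorylated at DNA breaks, fell in the sensitive cultures by limma at 16 h (-1.81, SE 0.31, adjusted p = 0.0016) and 24 h (-2.26, SE 0.31, adjusted p = 0.00020) and in the resistant cultures at 24 h (-1.48, SE 0.31, adjusted p = 0.027). Between the 589bm cultures the H2A variants H2az1 (-0.02), H2az2 (-0.37), H2aj (0.30) and H2ax (0.15) did not pass, where 16 replication-dependent H2A probes were lower. Macroh2a1 (0.50, SE 0.11) and the centromere histone Cenpa (0.38, SE 0.12) were higher there, and H3f3b (-0.51, SE 0.13), a gene for the variant H3.3, was lower; the other H3.3 gene, H3f3a, had -0.30 and did not pass. In 595sp H2ax (0.59) and H2az1 (0.30) were higher in the resistant culture.

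The only probe of Slbp, the stem-loop binding protein, lay below the filter at a mean log2 signal of 5.94 and was not tested in any comparison. Of 25 genes for histone pre-mRNA processing and histone mRNA decay 22 were tested. In 589bm 6 were lower and 2 higher in the resistant culture, where 11.4% of all probes were lower and 11.2% higher, with Cpsf2 (-1.02, SE 0.21) of the 3′ end cleavage complex and Upf1 (-0.77, SE 0.17), a helicase of histone mRNA decay, among the lower ones and Zfp473 (0.86, SE 0.14) among the higher ones. In 595sp 5 were higher and 2 lower, where 9.52% of all probes were higher and 8.85% lower, led by the Cajal body gene Coil (0.88, SE 0.11), the cap-binding gene Ncbp1 (0.73, SE 0.13) and Tut1 (0.63, SE 0.12). At 24 h in the sensitive cultures Smg1 (0.83) and Tut7 (0.60) were higher, where 6.37% of all probes were higher and 5.69% lower. Cpsf3 (-0.95), the endonuclease of 3′ end cleavage, was lower there. In the resistant cultures at 24 h none of the 22 passed, beside 1.06% of all probes.

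Of 20 histone chaperone genes, all tested, 4 were lower and 4 higher in resistant 589bm, where 22.7% of all probes passed. Supt16, a subunit of the chaperone FACT that handles H2A-H2B dimers, was the largest of them (-1.59, SE 0.14, limma adjusted p = 3.6e-08), while Chaf1b, of the chromatin assembly factor that loads H3-H4 at replication forks, was higher (1.08, SE 0.14), as was Rbbp7 (0.93, SE 0.20). In 595sp 4 were higher and 1 lower, beside 18.4% of all probes passing, with Nasp (0.81), an H3-H4 chaperone, Rbbp7 (0.69) and Rbbp4 (0.48) among the higher ones. In the sensitive cultures at 24 h Daxx (0.68) was higher and Anp32e (-0.60) lower, where 6.37% of all probes were higher and 5.69% lower.

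S phase genes fell in part in the sensitive cultures. Of 32 tested, 5 were lower and 0 higher at 24 h, beside 5.69% of all probes lower and 6.37% higher, among them Rrm2 (-1.09) and Tk1 (-0.90), which supply nucleotides, and Ccne1 (-1.06), cyclin E1. In the resistant cultures at 24 h 2 were lower, Ccne2 (-1.32) and Tk1 (-0.89), beside 0.442% of all probes. Between the 589bm cultures 5 were higher and 2 lower in the resistant one, a share near the 22.7% of all probes that passed. Tk1 (1.05) and Gins2 (0.71) were higher and Mcm7 (-1.26) was lower. The part of S phase genes in the H2A differences was not tested. In 595sp 10 were higher and 1 lower, beside 9.52% and 8.85% of all probes, among the higher ones Rpa2 (0.81), Ccne2 (0.62) and Gins4 (0.48).

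Of 14 tested growth arrest genes 5 rose in the sensitive cultures at 24 h and 0 fell, beside 6.37% of all probes higher and 5.69% lower, led by Gadd45a (3.0, SE 0.20), Gadd45g (2.05) and Sesn2 (1.5), and 1, Gadd45a (1.17), rose in the resistant cultures, beside 0.614% of all probes. Of 16 tested mitosis genes 3 fell in the sensitive cultures at 24 h, beside 5.69% of all probes, namely Kif23 (-1.01), Aurkb (-0.98) and Nusap1 (-0.95). In the resistant cultures 1, Cdc20 (0.88), rose at 24 h, beside 0.614% of all probes. Between the 589bm cultures 4 mitosis genes were higher in the resistant one, among them Plk1 (0.61), Aurkb (0.54) and Birc5 (0.48), and 1 was lower, where 11.2% of all probes were higher and 11.4% lower.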

How the data were processed

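Total RNA was labelled with biotin through the Illumina TotalPrep-96 kit after QIAshredder and RNeasy purification, per the labels' protocols. The authors deposited a non-normalized table of signal intensity for 45281 probes on 20 arrays, per the file headers, without detection p-values, and a series matrix of intensity whose 20 columns share the same sorted values within 0.101%, so it had been quantile-normalized; the software is not given in the sources used here. Background was removed from the non-normalized values by normexp (offset 50), and they were taken to log2 and quantile-normalized over 19 arrays with limma 3.58.1 in R 4.3.3. The brightest 50% of probes (22641) were tested. Platform symbols were updated through Entrez numbers for 34807 probes; 18 probes with several symbols and 10378 with none were not named.

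For responses, each time was set against 0 h with culture as a block and a term for each sensitivity at each time (7 residual degrees of freedom). Resistant and sensitive cultures of a line were compared in 1 fit of all 4 cultures with a time term (11), and at 0 h with a line term (1). Tests were lmFit and eBayes with an intensity trend and Benjamini-Hochberg adjustment over all tested probes. Nothing states that arrays came from separate cultures, so p-values measure only the spread between these samples. The culture is a block because all times of a culture share its title. All 19 arrays were most like another of their culture after normalization, and 15 before it. The number of arrays limits the precision. The fits were tested on simulated data. The histone members, gene lists and tests were chosen with earlier results of these data known. Named were the 4 brightest probes of each class, up to 5 rises and 5 falls per comparison or the 2 smallest p, and up to 3 passing members of each list, besides all replication-independent histones and Slbp; further members were named after their values were seen. Other gene lists are represented by the brightest tested probe of each gene.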

Additional observations from a re-analysis of the deposited data

Results flagged for a closer look

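The difference between resistant and sensitive cultures was itself unlike in the 2 lines for 24 histone probes, by limma's test of the difference (589bm minus 595sp, log2, adjusted p under 0.05). Among H2A probes the gap was -3.20 and -2.55 for the probes of H2ac12, -2.83 for H2ac11, -2.81 for H2ac21, -2.71 for H2ac15, -2.43 for H2ac22, -2.41 and -1.80 for H2ac7, -2.19 and -1.18 for H2ac10, and -2.07 and -2.01 for H2ac13. Smaller gaps were those of H2ac20 (-1.63 and -0.68), H2ac24 (-1.54), H2ac19 (-1.06) and H2ac18 (-1.0 and -0.80). Among H4 probes it was -1.84 for H4c18, -1.79 for H4c17, -1.53 for H4c9, -1.46 for H4c6 and -0.83 for H4c1. H2bc4 alone had a positive gap, 0.71, and fell below 0 in the 589bm comparison with all 20 arrays. With 1 culture of each kind per line, the line, the culture and its resistance cannot be told apart.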

How the results depend on the processing

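Of 42 named results that passed, 11 kept their direction and their side of the threshold in all 9 other alternatives and 19 fits that each left out an array; 1 reversed, H2bc4 in 589bm, at -0.067 with all 20 arrays. Main counts of histone probes are in the text, and the causes of the changes were not tested. For the sensitive cultures at 16 h the count was 4 with median scaling, 2 with the series matrix and with no background correction, 3 with no intensity trend, and 0 with no filter, all 20 arrays, no replicate block, the brightest probe of each gene (chosen after seeing the data) or without the 595spVR arrays. At 24 h it was 3 with median scaling, 2 without 595spVR, and 0 with all 20 arrays or no replicate block. Over the mean of late times it was 2 with median scaling, the brightest probe or without 595spVR, 1 with no filter, and 0 with all 20 arrays or no replicate block. For the resistant cultures at 16 h, 24 h and over the mean of late times it was 0 with all 20 arrays, no replicate block or without 595spVR, and with median scaling 1 at 16 h and 2 at 24 h. In 595sp the count was 2 with all 20 arrays and 6 with no replicate block; the difference between lines gave 14 with all 20 arrays. The block changed no other count by more than 1.5 times. The H2B class level was 8.45 with the series matrix and 8.47 with no background correction, the H4 level 7.90 and 7.91, and with no filter the H1 level was 6.62 and the H3 level 7.27. Leaving out 1 array gave counts of 0 to 0 at 2 h, 0 to 1 at 8 h, 0 to 7 at 16 h and 1 to 6 at 24 h in the sensitive cultures, and 0 to 0, 0 to 1, 0 to 3 and 1 to 4 in the resistant cultures. It gave 0 to 4 for both late means, 0 to 1 for their difference, 23 to 29 in 589bm, 6 to 14 in 595sp, 21 to 29 between lines and 0 to 0 at 0 h; an array left alone in its group was assumed to vary like the others. The 595sp, between-line and 0 h comparisons could not be fitted without 595spVR, nor 0 h without a 0 h array or resistant 2 h without its only array. Signal near background limits dim probes.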
